A study of Saccharomyces cerevisiae with 16 samples.

Results

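The genes described here are 56 assembly factor genes of the large ribosomal subunit in the budding yeast Saccharomyces cerevisiae. A fixed list of systematic identifiers names them. The list uses no measured value, but it was chosen with earlier results of these data known. All 56 were present in each of the 4 deposited tables, which together list 6885 features. They lie on 15 chromosomes, and their coding lengths run from 363 to 14733 bases, the longest being MDN1, which encodes the giant AAA ATPase also called Rea1. Ordered by where their products act, 41 belong to nucleolar steps, 8 to nuclear steps, and 7 to a last group. These 7 encode factors that travel with the particle to the cytoplasm or, as LSG1 does, act there. They are called genes travelling to the cytoplasm below.

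The large subunit is put together along a path from nucleolus to nucleoplasm to cytoplasm. In the nucleolus, scaffold proteins, RNA helicases and methyltransferases fold and trim the pre-ribosomal RNA, in the nucleoplasm GTPases and the Rea1 ATPase remodel the particle, and export factors then carry it through the nuclear pore to the cytoplasm, where the last factors are released. In growing yeast these genes are known as part of the ribosome biogenesis regulon, whose transcripts rise and fall together with the nutrient supply, and many of their promoters hold a PAC motif, which the repressors Dot6 and Tod6 bind, and an RRPE motif, which the repressor Stb3 binds.

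Each table sets 2 groups of 2 libraries side by side. The groups are hrr25as cells given 3MBPP1 or DMSO, WT cells given 3MBPP1 or DMSO, hrr25is cells given CMK or DMSO, and WT cells given CMK or DMSO. Every strain is labelled his3Δ leu2Δ ura3Δ with its chromosomal HRR25 replaced by kanMX4, so by the labels the WT cells also depend on a plasmid copy of this casein kinase 1 gene. The plasmid is pRS316-HRR25 in WT, a pRS315 form with I82G in hrr25as, and a pRS315 form with both I82G and I23C in hrr25is. Cells in YPD at 30°C were treated for 1 hour from an OD600 of 0.3. 3MBPP1 is an analogue of the kinase inhibitor PP1, and the labels do not expand CMK. The treatment protocol names DMSO and CMK alone, whereas sample titles and characteristics name 3MBPP1, and the groups follow the titles. Total RNA depleted of ribosomal RNA was read as single-end reads of 100 bases. In the headers the sides of a comparison are only A and B, with no word on which had DMSO, so each fold change below is condition B over condition A. Nothing in the labels says that libraries of a group came from separate cultures, so a p-value measures only the spread between these libraries.

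Whole reads per library were recovered from the deposited condition means, and the libraries held 4275991 to 34122412 counted reads. Recovered libraries carry no replicate number and are told apart within a condition by their size factor, smaller or larger, and values are given in that order. Member genes were covered by 50 to 44000 reads in any library, and no member shared a 100-base stretch with another place in the genome. The library of larger size factor in condition B of the hrr25is table was equal, at all 6760 features, to the corresponding library of the CMK table of WT. It had 1629 reads of URA3, the marker of the WT plasmid, per 1000000 counted reads, against 2.48 to 5.23 in the 3 remaining libraries of hrr25is. In the 3MBPP1 libraries of WT, LEU2, which marks the other plasmid, lay at 38.6 to 54.4 per 1000000 reads, though the label gives leu2Δ with a URA3 plasmid. In the same libraries URA3 lay at 91.0 to 120 and HRR25 at 117 to 166 per 1000000 reads, while the CMK libraries of WT had 1541 to 1842 for URA3 and 691 to 864 for HRR25. WT below is thus the label of the 3MBPP1 libraries, and whether they carry the labelled plasmid was not tested. Reads on small nucleolar and spliceosomal RNA genes were 31.4% to 38.2% of those libraries and 5.14% to 6.39% of the hrr25as ones, so levels are compared within a table only, and the part of these differences in any result was not tested.

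Sequence around the coding starts of the members was read first, to show what they share. The PAC and RRPE motifs were already known in promoters of this regulon, so their shares below are not a result of the 3MBPP1 comparisons. In the R64 reference genome, the build the submitters' processing notes call sacCer3, the 250 bases before and the 50 bases after each coding start were searched on both strands for the PAC motif GCGATGAG, its core GATGAG, and the RRPE core AAAAATTT. The core lies within the PAC motif, so a PAC match is counted under both. The PAC core was in 52 of 56 member promoters (92.9%), against 20.4% of the promoters of 6001 protein-coding genes. The RRPE core was in 49 (87.5%), against 14.1% of all promoters. Both cores occurred together in the windows of 45 members (80.4%) and of 5.63% of all genes. Among these 45, IPI3 had its only PAC core match after the coding start, at position 3. The full PAC motif was in the windows of 35 members (62.5%) and 3.93% of all genes. No member lacked both, whereas 71.1% of all promoters did.

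Windows from 190 to 61 bases before the coding start are printed for 8 members, chosen with their values known: DBP2, HAS1, DBP3 and MAK16, with the lowest values in the 3MBPP1 table of WT, NOP7 and NIP7, nucleolar genes close behind them, ARX1, an export factor gene, and RSA3, the member that moved least in both 3MBPP1 tables. On build R64 they lie at chrXIV:413449-413578 on the plus strand for DBP2 (YNL112W), chrXIII:851652-851781 on the minus strand for HAS1 (YMR290C), chrVII:361920-362049 on the minus strand for DBP3 (YGL078C), chrI:101206-101335 on the minus strand for MAK16 (YAL025C). The other windows lie at chrVII:695227-695356 on the plus strand for NOP7 (YGR103W), chrXVI:153305-153434 on the plus strand for NIP7 (YPL211W), chrIV:657528-657657 on the minus strand for ARX1 (YDR101C) and chrXII:579085-579214 on the minus strand for RSA3 (YLR221C). Each is written 5′ to 3′ on the coding strand, with capitals marking the PAC core (GATGAG, or CTCATC where it lies on the other strand) and the RRPE core (AAAAATTT or AAATTTTT), and overlapping matches run together.
DBP2: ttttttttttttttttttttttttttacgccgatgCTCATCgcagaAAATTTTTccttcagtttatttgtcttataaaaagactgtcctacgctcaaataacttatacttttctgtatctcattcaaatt
HAS1: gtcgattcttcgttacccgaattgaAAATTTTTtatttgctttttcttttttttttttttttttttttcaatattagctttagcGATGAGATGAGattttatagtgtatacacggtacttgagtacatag
DBP3: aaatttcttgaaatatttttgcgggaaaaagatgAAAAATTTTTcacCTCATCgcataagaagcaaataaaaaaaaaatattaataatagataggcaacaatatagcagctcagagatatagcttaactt
MAK16: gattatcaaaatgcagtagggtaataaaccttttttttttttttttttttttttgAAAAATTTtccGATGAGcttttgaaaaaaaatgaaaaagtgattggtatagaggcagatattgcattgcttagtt
NOP7: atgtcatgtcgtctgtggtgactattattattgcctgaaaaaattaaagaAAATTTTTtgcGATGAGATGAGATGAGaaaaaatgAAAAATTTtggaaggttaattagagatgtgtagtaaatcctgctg
NIP7: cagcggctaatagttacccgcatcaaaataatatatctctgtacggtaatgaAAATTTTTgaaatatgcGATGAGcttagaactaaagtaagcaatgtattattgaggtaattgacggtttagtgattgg
ARX1: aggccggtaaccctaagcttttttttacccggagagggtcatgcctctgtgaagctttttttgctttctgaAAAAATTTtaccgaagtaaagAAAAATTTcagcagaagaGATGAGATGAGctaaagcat
RSA3: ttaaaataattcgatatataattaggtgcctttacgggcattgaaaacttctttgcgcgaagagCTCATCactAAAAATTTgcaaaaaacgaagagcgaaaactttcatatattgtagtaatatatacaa
In NOP7, HAS1 and ARX1 the PAC core is repeated in overlapping copies. RSA3, which moved least, and DBP2, which had the lowest fold change in WT, each show a single core of both kinds in this window.

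Counted in bases from the coding start, the 87 PAC core matches of the members ran from -243 to 42, with a median position of -120, and the 70 RRPE core matches from -248 to -98, with a median of -145. In the bin from 150 to 101 bases before the start, 64.3% of member promoters held a PAC core, against 4.63% of all promoters, and 58.9% held an RRPE core, against 5.33% of all. PAC cores of members were found in every bin. From 250 to 201 bases before the start they were in 12.5% of member promoters, against 4.07% of all, and after it in 7.14%, against 2.67%. From 50 to 1 bases before the start the share was 1.79%, below the 2.58% of all promoters. MAK5, DBP10, LOC1, CGR1, SDA1, NOC3 and DBP6 had the PAC core without RRPE, and SPB1, NSA1, RIX1 and NOP53 had RRPE without the PAC core. These matches are letters in a window and say nothing of whether a factor binds there. In the deposited 3MBPP1 table of hrr25as, the 45 genes with both cores had a median log2 fold change of -0.56, the 7 with the PAC core alone -0.45 and the 4 with RRPE alone -0.47. In WT the corresponding medians were -0.59, -0.43 and -0.45, and no test was made of these differences.

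**Figure D1:**
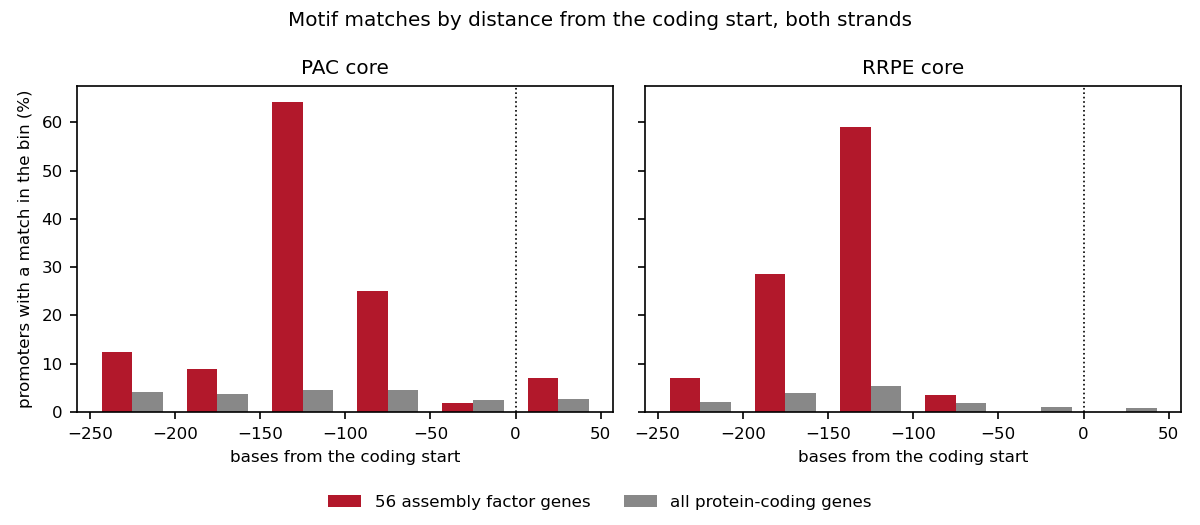
Share of promoters with a match (%, y axis) in 50-base bins by distance from the coding start (x axis, bases), for the PAC core on the left and the RRPE core on the right; red bars are the 56 assembly factor genes and grey bars all protein-coding genes, and the dotted line marks the coding start. The highest red bars stand in the bin from 150 to 101 bases before the start, at 64.3% and 58.9%, where the grey bars stand at 4.63% and 5.33%.

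In hrr25as cells of the 3MBPP1 set, all 56 assembly factor genes had lower mean levels in condition B than in condition A, with a median deposited log2 fold change of -0.53, against 0.02 over all 6258 features. Of the 56, 1 fell at an adjusted p under 0.05 in the authors' deposited test, HAS1, and 0 rose, while 3.12% of all features fell, 1.20% rose and 47.7% had values below 0. At an unadjusted p under 0.05 the count was 16, all lower, against 7.51% of features. Both condition B libraries lay below both of condition A in 47 members, against 23.9% of features. The 9 exceptions were NOC2, NOP12, NOP53, DBP7, SSF1, LOC1, RLP24, RSA3 and CGR1. These counts rest on the deposited size factors: scaled by total reads, all features had a median of 0.33 and the members one of -0.22, and RPF1, DBP7, SPB4 and RSA3 lay above 0. As a share of all counted reads the members together made up 0.800% and 1.02% of counted reads in condition B and 1.10% and 1.11% in condition A, without overlap.

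HAS1, a DEAD-box helicase used in both subunits, had the lowest value. Its normalised read counts (reads divided by the library's size factor) were 899 and 1015 in condition B and 2135 and 1734 in condition A, or a deposited log2 change of -1.02 (adjusted p = 0.0425). Both condition B libraries thus lay far below both of condition A. DBP3, a helicase that speeds processing of the pre-ribosomal RNA, had 513 and 686 in condition B and 1159 and 1170 in condition A, just outside the threshold (deposited -0.96, adjusted p = 0.0639). SDA1, a factor of the nucleoplasmic particle, had 782 and 779 in condition B, against 1671 and 1146 in condition A (deposited -0.85, adjusted p = 0.331). DRS1, a helicase of the nucleolar particle, had 724 and 634 in condition B and 1299 and 1055 in condition A (deposited -0.79, adjusted p = 0.194), and NOP16 had 115 and 92.9 in condition B and 227 and 129 in condition A (deposited -0.77, adjusted p = 0.846). In SDA1 and NOP16 the condition A libraries differed widely from each other. The smallest changes were those of RSA3, a small protein of the Npa1 complex, SPB4, a late nucleolar helicase, and RPF1 of the Nsa1 module, which shapes the solvent side of the early particle. RSA3 had 201 and 335 in condition B and 237 and 348 in condition A, SPB4 337 and 308 in condition B and 394 and 365 in condition A, and RPF1 141 and 151 in condition B and 159 and 194 in condition A. Their deposited log2 fold changes were -0.12, -0.23 and -0.27, each with an adjusted p of 1.

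By function, the PeBoW complex of NOP7, ERB1 and YTM1 and the A3 factors NOP15, CIC1 and RLP7, which act together in trimming the spacer ahead of the large subunit RNA, had a median of -0.63 in the deposited hrr25as table. The Rix1 and Rea1 group, which remodels the particle in the nucleoplasm, had a median of -0.50, the Npa1 complex, an early scaffold, -0.43 and the 10 DEAD-box helicases -0.48. By step the medians were -0.54 for nucleolar genes with 1 of 41 lower, -0.52 for nuclear genes with 0 of 8, and -0.57 for genes travelling to the cytoplasm with 0 of 7. ARX1, an export factor gene, had 926 and 972 normalised reads in condition B and 1628 and 1594 in condition A, so its groups stood well apart at a deposited log2 fold change of -0.76, but its adjusted p was 0.195. The condition B library of smaller size factor had a member median of -0.69 relative to the condition A mean, with 56 of 56 below 0, and the larger one -0.40, with 54 below 0. The single call did not hold in limma on the recovered reads, where HAS1 had adjusted p = 0.0501 and 0 members passed, against 2.38% of features lower. Leaving out condition B's larger library gave 13 limma calls, all lower, with 5.43% of features lower, and leaving out its smaller one gave 2 (DRS1 and HAS1), with 5.29% of features lower. Leaving out condition A's smaller library gave 0 and its larger one 1 (HAS1), with 2.33% and 3.36% of features lower.

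In WT cells, all 56 genes likewise had lower mean levels in condition B, with a median deposited log2 fold change of -0.55, against -0.00 over all 6834 features. In the authors' deposited test, 22 of the 56 fell at an adjusted p under 0.05 and 0 rose, while 4.59% of all features fell and 2.78% rose. Values below 0 were found in 50.2% of all features. An unadjusted p under 0.05 was reached by 44 members, all lower, against 8.11% of features that were lower. In every one of the 56, both condition B libraries lay below both condition A libraries, which held for 26.7% of features. Scaled by total reads, all features had a median of 0.21 and the members one of -0.34, SPB4 and RSA3 lay above 0, and limma called DBP2 alone of the members, with 2.39% of features lower. Here the members made up 0.420% and 0.594% of counted reads in condition B and 0.563% and 0.734% in condition A, and these ranges overlap. The smaller libraries of both conditions had like shares of small nucleolar and spliceosomal RNA reads, 38.0% in condition B and 38.2% in condition A, as had the larger ones, 31.6% in condition B and 31.4% in condition A. Among the smaller libraries and among the larger ones the members' share was lower in condition B.

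DBP2, a DEAD-box RNA helicase of ribosomal RNA processing and mRNA surveillance, had the lowest value of all. Its normalised reads were 1202 and 1344 in condition B, against 2479 and 3004 in condition A, and the deposited log2 fold change was -1.11 (adjusted p = 1.71e-06). Both condition B libraries thus lay far below both of condition A, by more than the spread within either. HAS1 had 376 and 598 normalised reads in condition B and 787 and 1020 in condition A. It came second by size at -0.89, yet its libraries spread widely and the deposited adjusted p was 0.119.

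DBP3 had 897 and 1188 normalised reads in condition B, against 1887 and 1968 in condition A, and fell by 0.89 on the log2 scale in the deposited table (adjusted p = 1.43e-04). MAK16, of the Nsa1 module, had 887 and 976 in condition B and 1699 and 1617 in condition A (deposited log2 fold change -0.83, adjusted p = 4.38e-04). BRX1, an early factor that pairs with Ebp2, had 695 and 862 in condition B and 1298 and 1445 in condition A (deposited -0.82, adjusted p = 7.46e-04). In each of these 3 genes the gap between conditions was wider than the spread within them. At the other end, RSA3 had 948 and 915 in condition B and 991 and 980 in condition A. SPB4 had 848 and 777 in condition B and 890 and 921 in condition A, and NOP16 had 1581 and 1503 in condition B and 1945 and 1711 in condition A. Deposited log2 fold changes of these 3 genes were -0.08, -0.16 and -0.25, and their adjusted p 0.944, 0.817 and 0.648.

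The PeBoW and A3 genes had a median of -0.59, and 3 of these 6 genes fell in the deposited test. NOP7 had 1420 and 1764 normalised reads in condition B and 2570 and 3029 in condition A (deposited log2 fold change -0.81, adjusted p = 9.26e-04). The Rix1 and Rea1 group had a median of -0.64 with 2 of 4 lower, MDN1 and RSA4. MDN1 had 3504 and 4036 in condition B, against 5529 and 6310 in condition A (deposited -0.65, adjusted p = 0.00510). RIX1, with 326 and 425 in condition B and 534 and 620 in condition A, had a log2 fold change of nearly the same size, -0.62, at a deposited adjusted p of 0.0526. None of the 5 genes of the Npa1 complex passed the test, and their median was -0.36. URB1, the largest protein of that complex, had 828 and 1170 normalised reads in condition B and 1389 and 1547 in condition A (deposited -0.56, adjusted p = 0.172).

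Among the 10 DEAD-box helicase genes, DBP6 of the Npa1 complex included, 3 fell (DBP2, DBP3 and DRS1), and the median was -0.52. Of the GTPase genes NUG1, NOG1, NOG2 and LSG1, NUG1 and NOG2 fell in the deposited table. NOG2, which holds the place of Nmd3 on the particle until export, had 1524 and 1591 normalised reads in condition B and 2326 and 2204 in condition A (deposited -0.54, adjusted p = 0.0474). Its intron holds the small nucleolar RNA gene SNR191 on the same strand, whose deposited log2 change was -0.49 (adjusted p = 0.525), and how the authors counted intron reads is not known here. NOG1 had 1255 and 1798 in condition B and 1981 and 2428 in condition A (deposited -0.53, adjusted p = 0.379). LSG1, the cytoplasmic GTPase that frees Nmd3, had 619 and 684 in condition B and 807 and 866 in condition A (deposited -0.36, adjusted p = 0.390).

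Both export factor genes fell. ARX1 had 563 and 835 normalised reads in condition B, against 1119 and 1281 in condition A (deposited log2 fold change -0.78, adjusted p = 0.0350). NMD3, the adaptor for the exportin Crm1, had 1367 and 1479 in condition B and 2108 and 2106 in condition A (deposited -0.57, adjusted p = 0.0332). MRT4 and RLP24, which hold the places of ribosomal proteins until the cytoplasm, fell by 0.79 and 0.62 on the log2 scale in the deposited table. TIF6, which keeps the small subunit from joining too early, had 999 and 1110 in condition B and 1466 and 1386 in condition A (deposited -0.44, adjusted p = 0.207).

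Set side by side, the steps had like values in this table. Nucleolar genes had a median deposited log2 fold change of -0.52 with 14 of 41 lower. Nuclear genes had -0.59 with 4 of 8 lower, and genes travelling to the cytoplasm -0.57 with 4 of 7 lower. The medians lie closer together than the members of any one step do, since nucleolar genes alone ran from -1.11 to -0.08. The condition B library of smaller size factor had a member median of -0.73 relative to the condition A mean and the larger one -0.44, with all 56 below 0 in each. The genes that passed had higher counts: the median of their mean normalised reads was 1321, against 944 for the 34 that did not, whose median log2 fold change was -0.44. The limma fit to the recovered reads called 26 members (5.03% of features were lower by limma), all 22 of the authors' among them, but single libraries decided how many. Leaving out condition A's smaller library left 1 limma call (DBP2) with 1.42% of features lower, and leaving out its larger one 2 (DBP2 and MAK16) with 2.19% of features lower. With condition B's smaller library left out, 16 members and 4.54% of features were called lower, and with its larger one left out, 43 members and 7.02% of features.

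**Figure D2:**
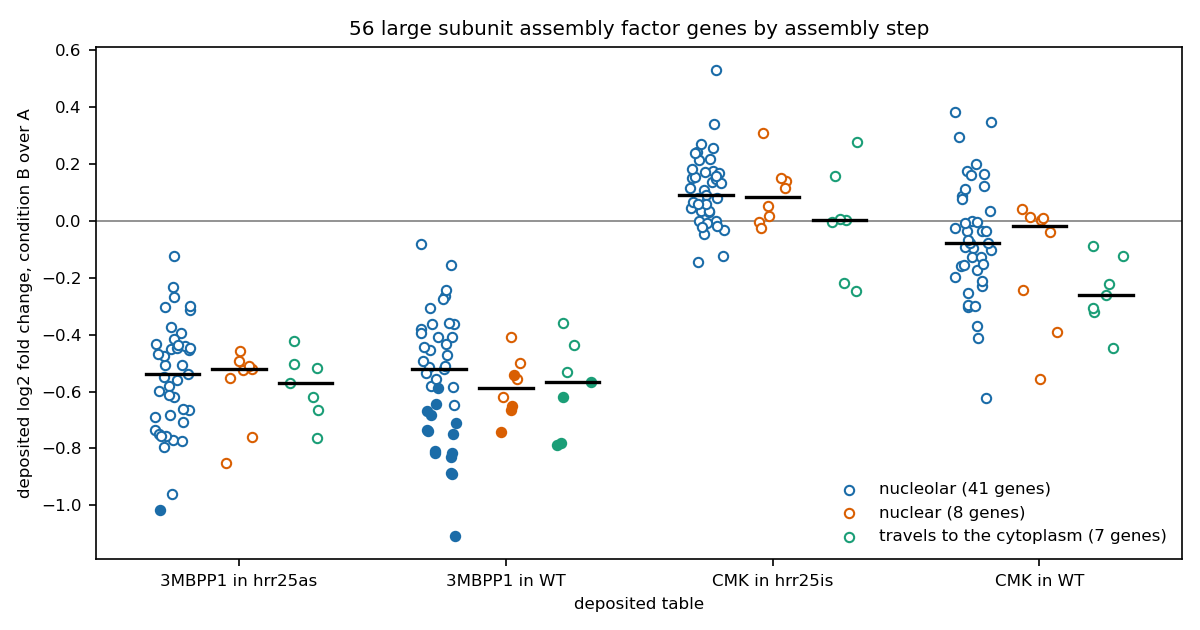
Deposited log2 fold change of condition B over condition A (y axis) for the 56 genes in each of the 4 deposited tables (x axis), coloured by assembly step; filled circles passed an adjusted p under 0.05 in the authors' test and black bars are medians. In the 3MBPP1 tables every circle lies below 0 and the 3 steps have medians between -0.59 and -0.52, while in the CMK tables the circles lie on both sides of 0 apart from the genes that travel to the cytoplasm in WT.

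**Figure D3:**
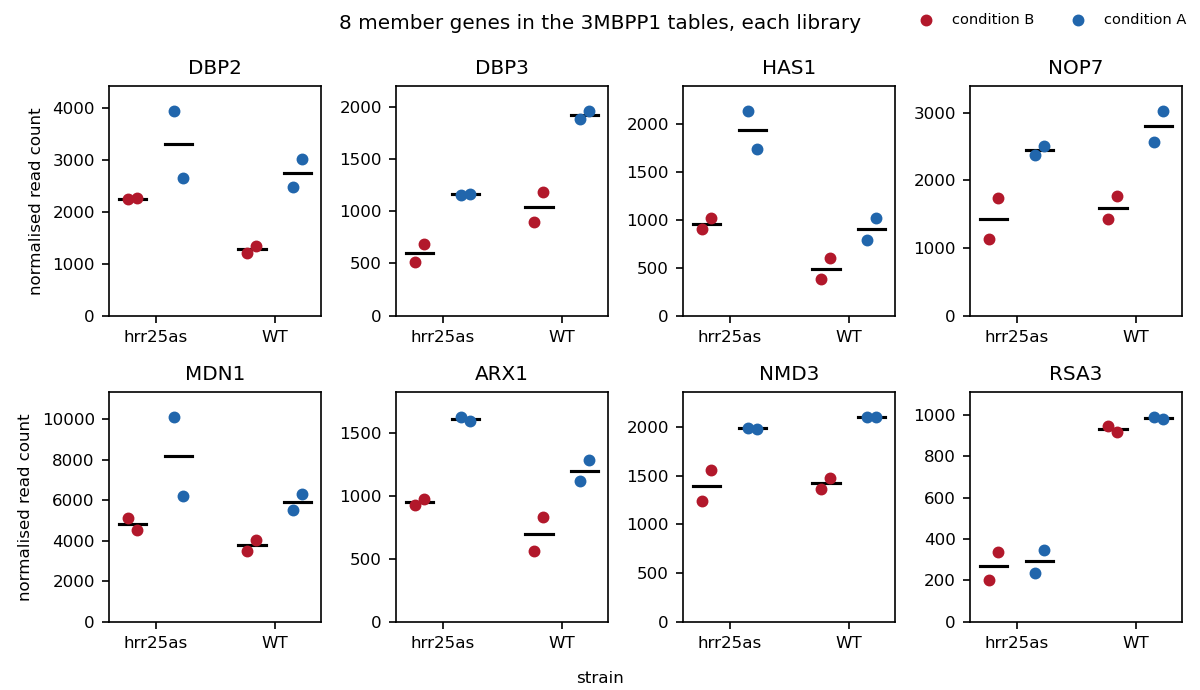
Normalised read count (y axis, linear from 0) of 8 member genes in each library of the 3MBPP1 tables, by strain (x axis); red points are condition B libraries, blue points condition A libraries, and bars the means of 2 libraries. The red points of RSA3 overlap the blue ones in hrr25as, and in all other panels and strains red lies below blue; levels are comparable within a strain only.

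The effect in hrr25as was then set against that in WT, which assumes that A means the same treatment in either table. In limma's test of this difference 0 of the 56 members passed an adjusted p under 0.05, against 0.0961% of 6246 features, and 0 reached an unadjusted p under 0.05, against 11.0% of features. The median difference, hrr25as minus WT, was 0.01 on the log2 scale, with standard errors from 0.20 to 0.44 (median 0.26). NOP8, an Npa1 complex protein, had the lowest adjusted p: its normalised reads in hrr25as were 147 and 147 in condition B and 267 and 228 in condition A, and in WT 568 and 576 in condition B and 695 and 690 in condition A. Its difference was -0.47 with a standard error of 0.22 (limma adjusted p = 0.498). DBP2 went the other way, with 2248 and 2257 in condition B of hrr25as and 3945 and 2640 in condition A, a difference of 0.58 with a standard error of 0.29 (limma adjusted p = 0.532). EBP2, NOP16, RLP7 and MRT4 followed with differences of -0.35, -0.48, -0.30 and 0.22 and limma adjusted p from 0.720 to 0.806.

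Across the 56 genes, deposited log2 fold changes in the 2 tables had a Pearson correlation of 0.53 and a Spearman correlation of 0.51, against a Pearson correlation of 0.39 over all 6246 features. The points share the 8 libraries behind them, and genes are not independent replicates. All 56 lay below 0 in both tables, as did 28.6% of all features.

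**Figure D4:**
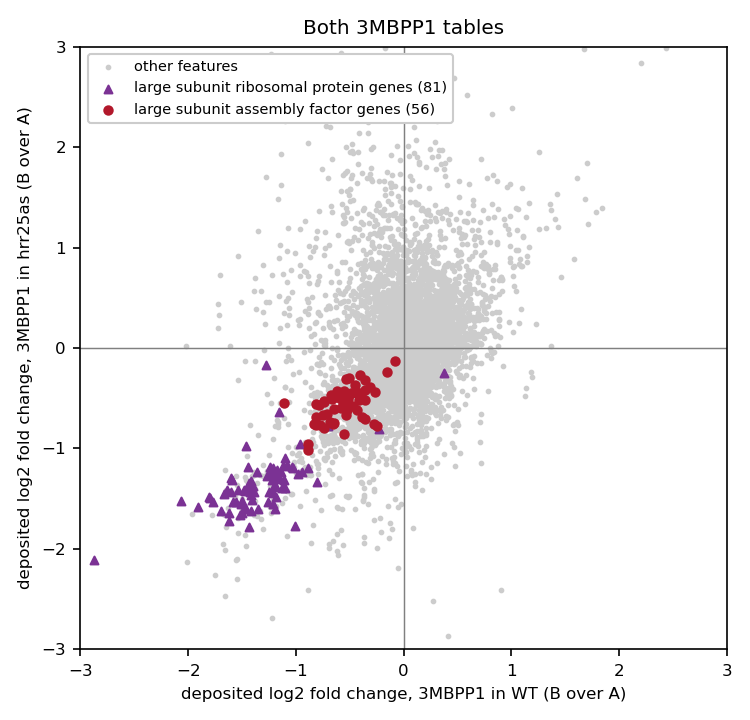
Deposited log2 fold change, condition B over condition A, for 3MBPP1 in hrr25as (y axis) and in WT (x axis); red circles are the 56 assembly factor genes, purple triangles 81 large subunit ribosomal protein genes, grey points other features, and 7 features lie outside the plotted range. The red circles lie below 0 on both axes, between the origin and most of the purple triangles, with medians of -0.53 in hrr25as and -0.55 in WT for the red and -1.38 and -1.27 for the purple.

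For CMK in hrr25is, condition B averages 1 library of its own with the library also found in the WT table. No member passed the authors' deposited test there, 0 lower and 0 higher, while 0.0296% of features fell and 0.0148% rose. The 0.0148% was 1 feature, URA3, the marker of the WT plasmid. It had 43.3 normalised reads in the hrr25is library and 32168 in the shared one, against 112 and 114 in condition A. No member reached an unadjusted p under 0.05, against 2.07% of features lower and 0.207% higher, and limma called 0 members. The median deposited log2 fold change was 0.08, against 0.01 over all 6760 features, and 15 of 56 genes lay below 0, against 48.0% of features. Scaled by total reads, 0 of the 56 lay below 0, against 15.8% of features, and the members' median was 0.40, beside 0.32 over all features. Both condition B libraries lay above both of condition A in 13 members (17.4% of features) and below them in 1, MRT4 (17.7% of features). Condition B's own library had a member median of 0.14 relative to the condition A mean, with 10 of 56 below 0, and the library shared with WT -0.00, with 28 below 0.

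DBP2 had the highest value: 14148 normalised reads in the hrr25is library and 13388 in the shared one, against 8162 and 10941 in condition A, a deposited log2 fold change of 0.53. RRS1, which with Rpf2 loads the smallest ribosomal RNA onto the particle, had 2905 and 2530 in condition B and 2073 and 2223 in condition A (deposited 0.34), and IPI3, of the Rix1 complex, 3190 and 2323 in condition B and 2330 and 2122 in condition A (0.31). In RRS1 and DBP2 both condition B libraries were the higher ones. The lowest were MRT4, with 3317 and 2974 in condition B and 3764 and 3694 in condition A (deposited -0.25), and TIF6, with 5253 and 6298 in condition B and 6116 and 7313 in condition A (-0.22). NOP2, a methyltransferase of the large subunit RNA, CGR1 and NSA2 followed with deposited values from -0.14 to -0.05. NOP2 had 5766 and 7215 in condition B and 7011 and 7330 in condition A, CGR1 1973 and 1684 in condition B and 2560 and 1424 in condition A, and NSA2 4320 and 3461 in condition B and 4410 and 3632 in condition A. Each of these 8 genes had an adjusted p of 1. All 10 helicase genes lay above 0, as did 41 of the 56 members and 3518 of 6760 features, and the helicase median was 0.18. The step medians were 0.09 for nucleolar, 0.08 for nuclear and 0.00 for genes travelling to the cytoplasm.

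With CMK in WT cells, no assembly factor gene passed the authors' deposited test, 0 lower and 0 higher, where 0.0% of features fell and 0.133% rose. None reached an unadjusted p under 0.05 either, against 0.178% of features lower and 0.828% higher, and limma called 0 members. The median deposited log2 fold change was -0.09, against 0.01 over all 6760 features, with 40 of 56 genes below 0, against 48.1% of features. Both condition B libraries lay below both of condition A in 11 members (12.8% of features) and above them in 3 (12.6% of features). With total reads, 25 of the 56 lay below 0, against 32.8% of features, and the members' median was 0.03, beside 0.13 over all features.

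NIP7, which works beside Nop8 in the nucleolus, had 1354 and 2312 normalised reads in condition B and 2961 and 2678 in condition A, and IPI3 had 1617 and 2323 in condition B, against 2799 and 2995 in condition A. Their deposited log2 fold changes were -0.62 and -0.56, each with an adjusted p of 1. In both genes the condition B library of smaller size factor was the low one. TIF6 had 3364 and 6298 in condition B and 7244 and 5920 in condition A (deposited -0.45), CIC1 2021 and 2702 in condition B and 2786 and 3503 in condition A (-0.41), and NOG2 4135 and 4639 in condition B and 5308 and 6189 in condition A (-0.39). RPF1, NOP8 and SPB4 had the highest values. RPF1 had 1603 and 1467 in condition B and 1158 and 1201 in condition A (deposited 0.38), NOP8 2321 and 1350 in condition B and 1339 and 1546 in condition A (0.35), and SPB4 2851 and 2048 in condition B and 1986 and 2010 in condition A (0.29). All these adjusted p were 1.

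By step, the 7 genes travelling to the cytoplasm all lay below 0 in the deposited CMK table of WT, with a median of -0.26, while nucleolar genes had a median of -0.08 and nuclear genes -0.02. No test was made of this difference between steps, and it lay mostly in 1 library: relative to the condition A mean the 7 genes had a median of -0.57 in the condition B library of smaller size factor and -0.06 in the larger one. Without the larger library of condition B, limma called 2 members lower, TIF6 and NIP7, with 3.61% of features lower, and without any other library 0.

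The CMK effect in hrr25is minus that in WT was tested in limma with the shared library kept in its WT place, which leaves condition B of hrr25is with 1 library, assumed to vary like the others. Of the 56 members 0 passed, as did 0.0% of 6760 features, and 2 reached an unadjusted p under 0.05, against 5.53% of features. The median difference was 0.24, beside -0.04 over all features, and 46 of 56 lay above 0, against 47.0% of features. For IPI3 the hrr25is library of condition B had 3190 normalised reads against 2330 and 2122 in condition A, while the WT values given above ran the other way, a difference of 1.10 with a standard error of 0.34 (limma adjusted p = 0.727). NOG2 had 6141 in the hrr25is library against 5144 and 4565 in condition A, a difference of 0.73 with a standard error of 0.30 (limma adjusted p = 0.898). DBP10, NSA1, BRX1 and RPF2 followed with differences of 0.64, 0.53, 0.57 and 0.53 and limma adjusted p from 0.936 to 0.940.

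**Figure D5:**
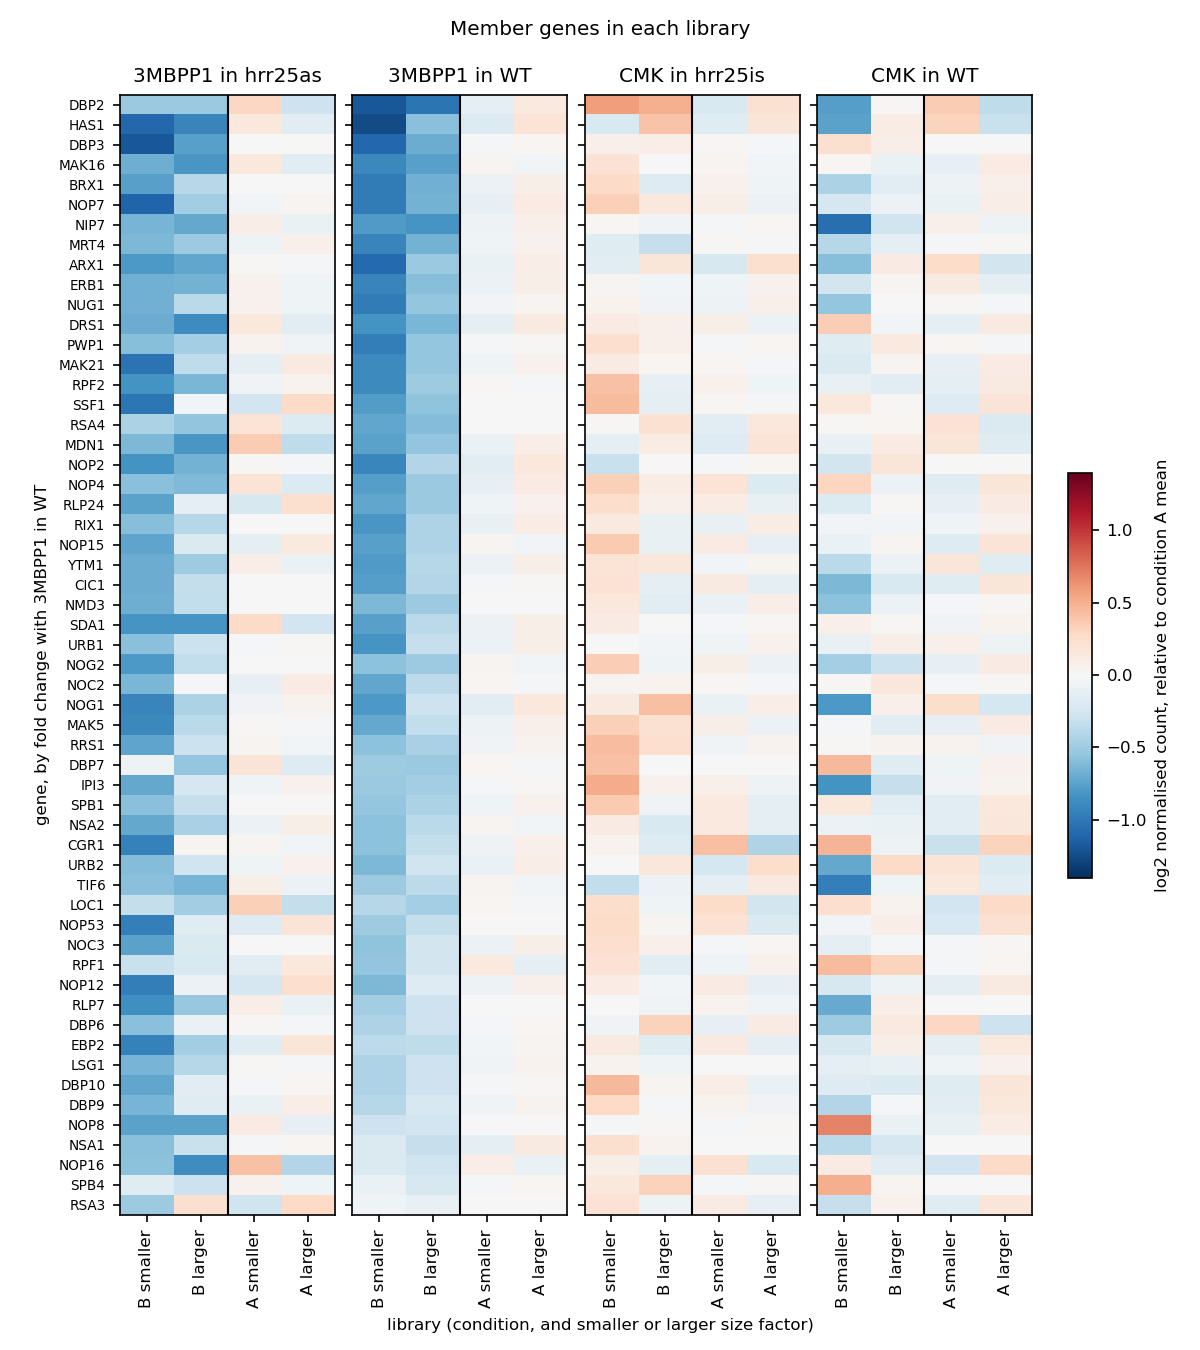
Each member gene (rows, ordered by fold change in the 3MBPP1 table of WT) in each library of the 4 tables (columns, condition B left of the line and condition A right of it, by size factor); colour is log2 normalised count relative to the condition A mean of that table, blue lower and red higher. Condition B of both 3MBPP1 tables is blue for nearly all genes, deeper in the library of smaller size factor, while the CMK tables are mixed; the larger condition B library of hrr25is is the one shared with WT.

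Levels per length differed more among members than between conditions. In the 3MBPP1 table of hrr25as, DBP2, TIF6 and NOG1 were the highest, at 1373, 1273 and 1094 normalised reads per 1000 bases of coding sequence in condition B and 2006, 1954 and 1733 in condition A. In WT, URB2 and RLP7 had 152 and 2097 normalised reads per 1000 bases in condition B, and 207 and 2733 in condition A, where they were the ends of the range. TIF6 was the highest in condition A of both CMK tables, and DBP7 the lowest, with 630 in condition B and 542 in condition A for hrr25is and 686 in condition B and 607 in condition A for WT. RLP7 stood among the highest 4 in condition A of all 4 tables.

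Other genes of ribosome production gave the setting. Of 28 further large subunit factors, 1 fell in the deposited 3MBPP1 table of hrr25as, ARB1, an ABC ATPase, at -1.06 (adjusted p = 0.0215), with a list median of -0.48, and 5 in WT (NOP13, YVH1, ALB1, PUF6 and RRP1), with a median of -0.38. Of 51 small subunit processome genes, 1 fell in hrr25as with a median of -0.50 and 20 in WT with a median of -0.52. Those medians were close to the values of the 56 members. Both motif cores stood in 74.5% of the processome promoters and in 46.4% of those of the 28 further large subunit factors. RNA polymerase I genes fell in 0 of 7 cases in hrr25as, where the median was -0.67, and in 4 of 7 in WT, RPA190, RPA49, RPA43 and RPA34, with a median of -0.75. Ribosomal protein genes of the large subunit, the building blocks that the members assemble, fell in 68 of 81 cases in hrr25as and 77 of 81 in WT, with deposited medians of -1.38 and -1.27. With CMK their medians were -0.68 in hrr25is and -0.38 in WT, with 0 of 81 passing in either. The transcripts of 9 regulators of these genes, among them SFP1, DOT6, TOD6 and STB3, had medians of -0.15 in hrr25as and 0.02 in WT, and 0 passed in either 3MBPP1 table. TOD6 had deposited log2 fold changes of -0.49 in hrr25as (adjusted p = 0.736) and -0.34 in WT (adjusted p = 0.370).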

How the data were processed

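RNA sequencing of 16 yeast samples in 8 groups of 2 was used. Per the submitters' processing notes, the build was sacCer3 and the tools HTSeq 0.6.0, STAR 2.3.0 and CASAVA 1.8.2, and the strand setting of the counting is not known here. Column names in the headers follow DESeq (version not known here). The authors averaged normalised counts of a condition into the deposited signal columns, per the file headers. Dividing condition B by condition A gives the ratio deposited as fold change, and its log2 is deposited beside it. Deposited p-values come from the authors' test, and adjusting them by Benjamini-Hochberg within each table gives the deposited adjusted values.

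The plan assumed counts per sample, with the authors' deposited test as the fallback, and the fallback was used at an adjusted p under 0.05. Every condition mean was a sum of whole reads over a pair of size factors, and solving for these gave a single pair of whole counts for 100% of means, with a tolerance of at most 6.86e-08 reads. Recovery and the limma fits were tested on simulated data. Counting error is largest where reads are few, and the lowest member counts in the 3MBPP1 libraries of hrr25as were 50 to 123 reads. With 2 libraries per condition their spread also limits precision. Limma 3.58.1 in R 4.3.3 was fitted to log2 of recovered normalised reads plus 0.5 with a mean-dependent prior, adjusted over all features, for each table and for differences between strains, so its fold changes are on the log2(value + 0.5) scale. Alternatives were limma, total reads, a pseudocount of 5, a mean of at least 10 reads, an adjusted p under 0.1 and leaving out each library. Symbols, coding lengths and promoters came from the R64 reference, which matched all 56 identifiers. The members, the lists and the steps were chosen with earlier results of these data known. Values per library are given, by rule, for the 5 lowest and 3 highest members of each table. They are also given for NOP8, DBP2, IPI3 and NOG2, which had the smallest adjusted p in the differences between strains. Fixed members with such values in at least 1 table were NOP7, URB1, NOG1, MDN1, NOG2, RIX1, TIF6, NMD3, LSG1 and ARX1.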

Additional observations from a re-analysis of the deposited data

How the results depend on the processing

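HAS1 with 3MBPP1 in hrr25as, and the 22 members that fell in WT, lay below 0 under every alternative run. For these tables limma on recovered reads called 0 members in hrr25as and 26 in WT, all lower, with 2.38% and 5.03% of features lower. A pseudocount of 5 gave 0 and 26 (2.29% and 5.03% of features lower), and an adjusted p under 0.1 gave 2 and 30 (3.71% and 5.31%). A mean of at least 10 reads gave 24 in WT (4.77%). Scaled by total reads, limma called 0 and 1 (0.272% and 2.39%), and the members' medians with 3MBPP1 were -0.22 in hrr25as and -0.34 in WT, beside 0.33 and 0.21 over all features. With CMK they were 0.40 in hrr25is and 0.028 in WT, beside 0.32 and 0.13 over all features. The cause was not tested. Leaving out 1 library at a time, limma called 0 to 13 members with 3MBPP1 in hrr25as (2.33% to 5.43% of features lower) and 1 to 43 in WT (1.42% to 7.02%), with medians from -0.69 to -0.40 and from -0.73 to -0.44. With CMK the members' medians in these fits ran from -0.0023 to 0.14 in hrr25is and from -0.17 to -0.012 in WT. Both differences between strains had 0 members called under every alternative run. No paired analysis was possible because the deposited columns carry no replicate numbers, and libraries of WT with like shares of small nucleolar RNA reads were not taken as pairs. With 2 libraries per condition, calls rest on few values per gene, and in limma also on a prior drawn from the spread of all features. For CMK in hrr25is they also rest on a library that stands in the WT table.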
